A study of Mus musculus with 6 samples.

Results

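The Ly6 genes Ly6e, Ly6i and Ly6c2 encode small proteins of the leukocyte surface, and their transcripts were lower in Senp8+/- than in wild-type mouse macrophages that had met CD47. These 3 genes are a small part of the 714 genes in the deposited table. They were chosen by name from that table, with their measured genotype difference already known, and the table itself was selected on the same comparison, since each listed gene passes an unadjusted p of 0.05 and differs 2-fold or more between genotypes. Their differences between genotypes are therefore described here and not tested.

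Messenger RNA was sequenced from 6 libraries of bone marrow-derived macrophages of C57BL/6 mice, 3 wild-type and 3 Senp8+/-. The sample titles call the latter KO, while the genotype label is heterozygous. Senp8 is the gene of a protease that processes the ubiquitin-like protein NEDD8 and takes it off its targets, and Senp8 itself was not listed, so the genotype was not checked on it. The marrow cells of both genotypes were grown for 6 days with GM-CSF at 10 ng/ml, were given beads coated with mouse CD47, the surface protein bound by the macrophage receptor SIRPα, and gave RNA 24 h after the stimulation. No library without CD47 beads was analysed here, and neither the age of the mice nor how many mice gave a library is given. Whether replicates are separate mice or cultures is not stated, so any p here reflects only how far these libraries scatter, and that scatter may be technical. Values are normalised counts, reads of a gene divided by 1 size factor per library, and are given as mean ± SD (n = 3 libraries per genotype) unless single libraries are named. The size factors lay between 0.933 and 1.14, so 1 normalised count was close to 1 read. The reads over the listed genes ranged from 205957 to 491156 per library, and the full depth of the libraries is unknown here. The sex of the mice is not among the sample labels used here. Ddx3y, a gene of the Y chromosome, held 245 to 433 in wild type and 816 to 1050 in Senp8+/-. Eif2s3y, also of the Y chromosome, held 405 to 656 and 1024 to 1345. The part of sex in the differences between genotypes was not tested. The macrophage markers Adgre1, Cd68 and Csf1r were not among the listed genes, so the labelled cell type was checked only on C1qa and C1qc, which stood at 7678 ± 2877 and 11766 ± 4719 in wild type.

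Ly6 proteins share a fold of 3 protein loops held by disulphide bonds and are tied to the cell surface by a glycosylphosphatidylinositol (GPI) anchor. Ly6c2 encodes a form of Ly6C, the antigen by which mouse monocytes are divided into classical and patrolling cells. Ly6e is found on many cell types, is induced by interferon and affects the entry of several viruses. Ly6i and Ly6a lie beside each other, and Ly6a encodes Sca-1, a marker of blood stem cells that interferons also induce. Anti-Ly6C antibodies do not separate the products of Ly6c1 and Ly6c2, whereas RNA reads can do so wherever the copies differ.

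The start of each coding sequence is shown because the likeness of the copies decides how far their reads can be told apart. The lines give the first 120 coding bases of 1 principal GENCODE M21 transcript per gene, 5′ to 3′, and capitals mark bases that differ from Ly6c2 in a pairwise alignment.
Ly6c2: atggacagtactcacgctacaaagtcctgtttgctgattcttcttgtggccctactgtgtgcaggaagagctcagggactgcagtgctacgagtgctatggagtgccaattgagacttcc
Ly6c1: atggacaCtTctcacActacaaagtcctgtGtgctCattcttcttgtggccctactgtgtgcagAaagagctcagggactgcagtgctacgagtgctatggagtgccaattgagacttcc
Ly6a: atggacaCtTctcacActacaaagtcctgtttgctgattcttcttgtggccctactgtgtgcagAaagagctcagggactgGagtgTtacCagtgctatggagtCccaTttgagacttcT
Ly6i: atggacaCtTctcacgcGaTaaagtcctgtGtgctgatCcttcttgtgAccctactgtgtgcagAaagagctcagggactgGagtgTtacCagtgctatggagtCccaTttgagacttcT
Ly6e: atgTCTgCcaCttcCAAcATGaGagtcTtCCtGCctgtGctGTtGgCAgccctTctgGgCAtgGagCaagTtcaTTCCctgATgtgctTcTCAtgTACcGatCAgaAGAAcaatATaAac
In this stretch 6 bases of Ly6c1, 10 of Ly6a, 14 of Ly6i and 53 of Ly6e differed from Ly6c2. Over the aligned coding bases, with gaps left out, Ly6c2 was 97.7% identical to Ly6c1, 83.6% to Ly6a, 83.3% to Ly6i and 60.2% to Ly6e. The bases left out against gaps were 0 for Ly6c1, 9 each for Ly6a and Ly6i, and 73 for Ly6e. Ly6i was closest to Ly6a, at 86.4%. Of the 50-base windows of the Ly6c2 transcript, 33.0% also occurred in a transcript of another gene, 252 of the 255 shared windows in Ly6c1. That share was 15.8% for windows of 100 bases and 5.79% for windows of 150 bases. In Ly6i 4.97% of the 50-base windows were shared and 0 of the longer ones, and in Ly6e 0 windows of any of these lengths were shared. Neither the read length nor the handling of reads with several matches is given. The Ly6c2 value is therefore uncertain against Ly6c1, while the principal Ly6e transcript had no exact copy in another gene's transcripts at these lengths. Copies with mismatches were not sought.

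Ly6e (ENSMUSG00000022587, chromosome 15, 74955051 to 74959905 in GRCm38, plus strand) was the most abundant listed gene of the family, also per length. Its normalised counts were 17192, 18015 and 14055 in wild-type replicates 1, 2 and 3 and 5369, 5566 and 5601 in Senp8+/- replicates 1, 2 and 3. The genotypes did not overlap, and the lowest wild-type library was 2.51-fold above the highest Senp8+/- library. The means were 16420.3 ± 2089 in wild type and 5512 ± 125 in Senp8+/-, a 2.98-fold lower level. By mean level per kb of gene length, Ly6e ranked 11 of 714 listed genes in wild type and 15 of 714 in Senp8+/-, so it stayed among the most abundant listed transcripts in both genotypes. The Senp8+/- libraries lay close together, with a coefficient of variation of 2.27%, against 12.7% in wild type. In bulk RNA, fewer cells of a type and less RNA per cell cannot be told apart, here and in all results below.

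Ly6i (ENSMUSG00000022586, chromosome 15, 74979534 to 74983430, minus strand) showed a wider gap from a much lower level. Wild-type replicates 1, 2 and 3 held 406, 420.2 and 190 normalised counts, and the Senp8+/- replicates 19.6, 16.7 and 28.9. The lowest wild-type library, replicate 3, was still 6.58-fold above the highest Senp8+/- library. The mean was 339 ± 129 in wild type and 21.7 ± 6.38 in Senp8+/-, 15.6-fold lower, or 19.0-fold lower without wild-type replicate 3. Only 18 to 27 reads per Senp8+/- library stand behind the lower values.

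Ly6c2 (ENSMUSG00000022584, chromosome 15, 75108158 to 75111970, minus strand) closely followed Ly6i. It held 399, 523 and 225 normalised counts in wild-type replicates 1, 2 and 3 and 18.5, 29.8 and 43.9 in the Senp8+/- replicates. Again wild-type replicate 3 was the lowest of its genotype, and again the genotypes did not overlap, with a 5.11-fold gap between the nearest libraries. The mean was 382 ± 150 in wild type and 30.7 ± 12.7 in Senp8+/-, 12.4-fold lower. The difference of log2(value + 1), Senp8+/- minus wild type, was -3.59, and -3.93 without wild-type replicate 3. Senp8+/- replicate 1 held 18 reads (95% exact Poisson interval 10.7 to 28.4) and replicate 3 held 41 (29.4 to 55.6). These intervals cover counting error only, and they did not overlap. The plot of normalised counts per library shows these values.

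**Figure D1:**
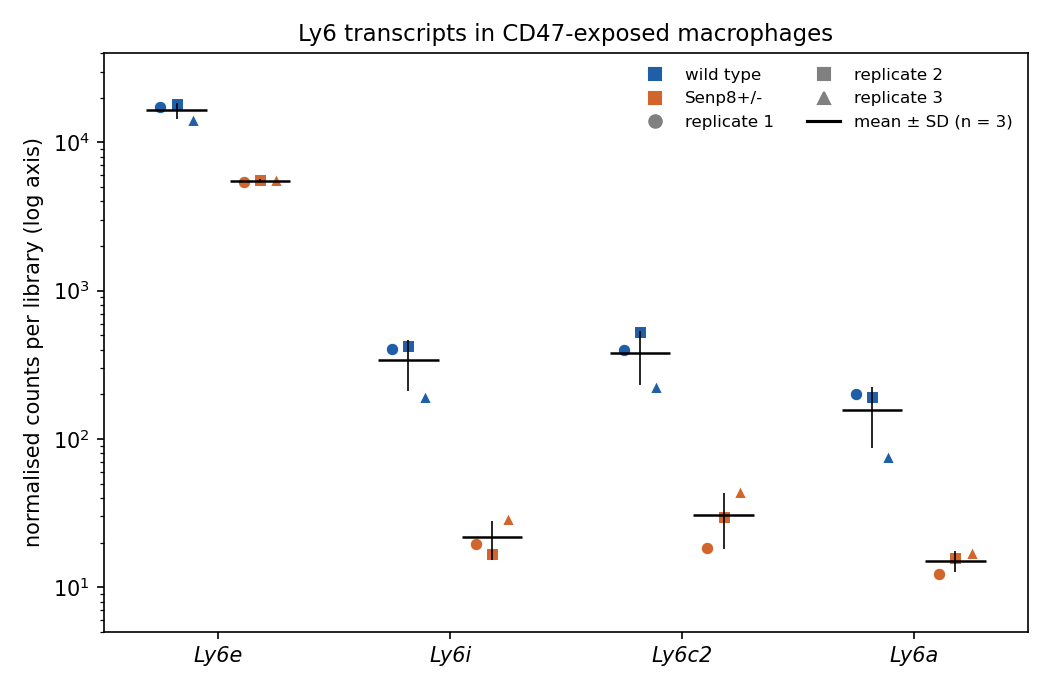
Normalised counts (log axis) of Ly6e, Ly6i, Ly6c2 and Ly6a in each of the 6 libraries, with blue for wild type, orange for Senp8+/-, a symbol shape per replicate, and bars for the mean ± SD (n = 3). Every Senp8+/- value lies below every wild-type value of its gene, and wild-type replicate 3 (blue triangle) is the lowest of the wild-type libraries for all 4 genes.

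A gene is termed called where the authors' deposited table gives it an adjusted p below 0.05. All 3 genes were called, each lower in Senp8+/-. Among the 714 listed genes 41.3% were called, 33.9% lower and 7.42% higher in Senp8+/-. Of the 14694 genes in the authors' correction 2.01% were called. The libraries of the genotypes did not overlap for 3 of the 3 genes and for 89.4% of the listed genes. The choice of the genes used this contrast, so nothing is read from these counts. Among the 242 genes called lower, the log2 fold changes in the authors' deposited table placed Ly6i at rank 14 of the falls, with -3.97, Ly6c2 at rank 24, with -3.64, and Ly6e at rank 148, with -1.57. The selection ended at a p of 0.0499 (5031434O11Rik) and at a fold change just past 2-fold (Abca6), and genes beyond those edges were not analysed here.

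Levels can be set side by side between genes only per length. Per kb of the gene length in the deposited table, Ly6e stood at 4339 ± 552 normalised counts in wild type, Ly6i at 293 ± 111 and Ly6c2 at 139 ± 54.7. In Senp8+/- they stood at 1457 ± 33.0, 18.8 ± 5.52 and 11.2 ± 4.64 per kb. Ly6e was highest in both genotypes by far more than the spread. The order of Ly6i and Ly6c2 rests on the length used. The table's 2740 bases for Ly6c2 exceed the 822 bases of its principal coding transcript, whereas the 1156 bases for Ly6i equal those of its own. On the log2 scale Ly6i lay above Ly6c2 by 1.07 per kb in wild type with the deposited lengths, and this difference became -0.67 with the principal transcripts.

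Ratios within a library do not depend on the size factor of that library. The ratio of Ly6e to Ly6i was 42.3, 42.9 and 73.8 in wild-type replicates 1, 2 and 3 and 275, 332 and 194 in the Senp8+/- replicates. The ratio of Ly6e to Ly6c2 was 43.1, 34.5 and 62.6 in wild type and 290, 187 and 128 in Senp8+/-. Both ratios were higher in each Senp8+/- library than in any wild-type library, so the abundant Ly6e took a larger share of the 3 transcripts there. By contrast Ly6c2 over Ly6i was 0.983, 1.24 and 1.18 in wild type and 0.947, 1.78 and 1.52 in Senp8+/-, and these ranges overlapped. On the log2 scale of values + 1, Ly6i was lower in Senp8+/- by 2.28 more than Ly6e was, and Ly6c2 by 2.02 more. The genotype differences of Ly6i and Ly6c2 were 0.26 apart, less than the spread between libraries.

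**Figure D2:**
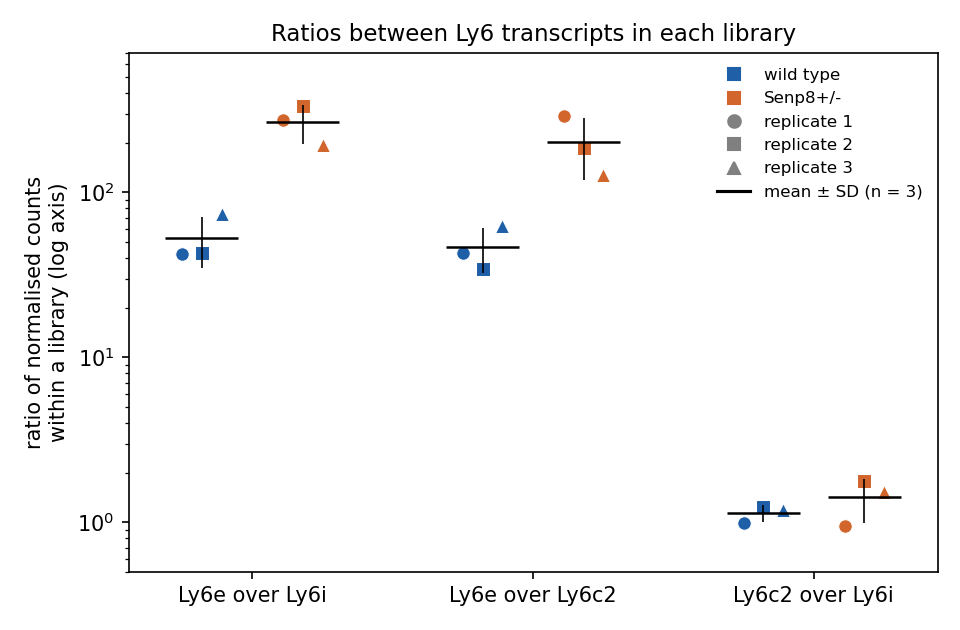
Ratio of normalised counts of 2 Ly6 transcripts within each library (log axis), wild type in blue and Senp8+/- in orange, with a symbol per replicate and bars for the mean ± SD (n = 3). Ly6e over Ly6i and Ly6e over Ly6c2 do not overlap between genotypes, with wild type at 34.5 to 73.8 and Senp8+/- at 128 to 332, while Ly6c2 over Ly6i overlaps.

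The wider family held 2 more listed genes. Of 45 genes of the Ly6 and uPAR families in the list used here, 5 were listed, 4 of them called lower and 0 called higher. Besides the 3 described above these were Ly6a and Ly6g5b. Over all listed genes 33.9% were called lower and 7.42% higher. Since 3 of the 5 family genes were chosen for their fall, nothing is read from the count of family genes called. Ly6a (ENSMUSG00000075602, chromosome 15, 74994877 to 74998031, minus strand) held 200.1, 192 and 76.0 normalised counts in wild-type replicates 1, 2 and 3 and 12.4, 15.8 and 17.1 in the Senp8+/- replicates. It fell 10.3-fold, from 156 ± 69.4 to 15.1 ± 2.47, and wild-type replicate 3 was once more the lowest of its genotype. Ly6g5b, a family gene on chromosome 17, had 0.973 ± 0.0922 in wild type, which is 1 read in each library, and 5.89 ± 3.11 in Senp8+/-, and it was not called. The listed family genes had a median log2 fold change of -3.37 in the authors' deposited table, against -1.48 over all listed genes, but 3 of the 5 were chosen for their fall. Ly6c1, the near copy of Ly6c2, was not listed, nor was the neutrophil marker Ly6g. Genes outside the table were not analysed here.

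The listed Ly6 genes on chromosome 15 were neighbours. Between Psca and Gpihbp1, the 885 kb that hold the Ly6 cluster in GENCODE M21, 25 protein-coding genes are annotated, of which 21 are of the Ly6 and uPAR family. 4 of the 21 were listed, Ly6e, Ly6i, Ly6a and Ly6c2, in that order along the chromosome. Gaps of 19.6 kb between Ly6e and Ly6i, 11.4 kb between Ly6i and Ly6a and 110 kb between Ly6a and Ly6c2 separate them. The 1 other listed gene of the interval was the long noncoding RNA gene Gm39556 (ENSMUSG00000116380, 74929437 to 74936316, plus strand), whose start lies 25.6 kb from that of Ly6e. Gm39556 held 14.9, 39.1 and 19.2 normalised counts in wild-type replicates 1, 2 and 3 and 3.09, 0.930 and 3.21 in the Senp8+/- replicates. It was called lower, and its Senp8+/- values rest on 1 to 3 reads per library. So the 5 listed genes of the cluster lay within 183 kb and were all called lower, in a stretch with 5 protein-coding genes of which Ly6c1 was not listed. Of the listed genes 33.9% were called lower and 41.3% in either direction. On chromosome 15, 12 of the 30 listed genes were called in either direction. Since 3 of the 5 listed genes of the cluster were chosen for their fall, nothing is read from their count. No other annotated gene overlaps Ly6e, Ly6i, Ly6c2 or Ly6a (0 each), so reads of an annotated antisense partner were no concern for them, although the strandedness of the counting is not given.

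The next listed genes on the chromosome lay farther off and were not called. Mafa, a transcription factor gene 637 kb from the nearest of the 3, had 15.5 ± 3.99 in wild type and 37.5 ± 5.16 in Senp8+/-. Naprt, an enzyme of NAD synthesis at 783 kb, had 56.5 ± 15.7 and 25.8 ± 3.73, and the zinc transporter Slc39a4 at 1504 kb had 34.7 ± 5.24 and 13.3 ± 4.6. Within 2 Mb of the 3 genes, those called lower were thus the 5 of the cluster.

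**Figure D3:**
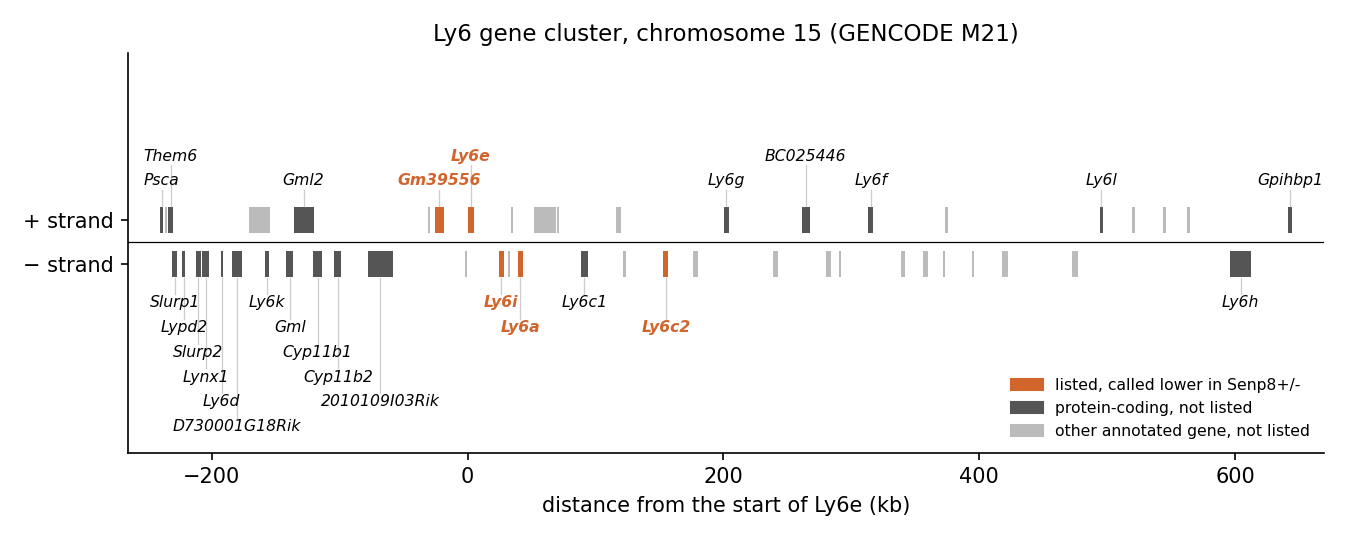
Annotated genes of the Ly6 cluster between Psca and Gpihbp1 (GENCODE M21), drawn by distance from the start of Ly6e in kb, plus strand above the line and minus strand below. The 5 listed genes, all called lower in Senp8+/-, are orange and lie within 183 kb, and genes that were not listed are dark where protein-coding and light otherwise.

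The promoter of Ly6c2 is shown as the only one of the 3 in the RefSeq table used here. RefSeq gives it 2 starts. The 250 bases before the upstream start lie at chr15:75111972-75112221 (GRCm38.p6, minus strand) and are printed 5′ to 3′, with capitals for GAGGAA, the ETS core bound by PU.1, a master factor of myeloid cells.
Ly6c2: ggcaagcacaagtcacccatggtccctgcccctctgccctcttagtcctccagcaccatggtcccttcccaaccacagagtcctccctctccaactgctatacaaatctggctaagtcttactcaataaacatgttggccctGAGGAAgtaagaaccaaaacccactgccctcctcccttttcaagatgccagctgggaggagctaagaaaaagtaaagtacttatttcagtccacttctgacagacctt
On a search of both strands GAGGAA had 1 match in this window, 108 bases before the start. The window of the other start, chr15:75111938-75112187, overlaps the printed one and holds 2 matches, the same one at 142 bases before that start and another at 8 bases. GAGGAA occurs in 23.3% of 32851 promoter windows of this length. The gamma-activated site TTCNNNGAA and the interferon-stimulated response element (TTTC, any 2 bases, TTTC) had 0 matches in either window, against 7.02% and 2.98% of all windows. These are matches of letters, not binding sites.

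The genes whose pattern over the 6 libraries was most like that of each Ly6 gene were found by the root mean square difference between centred log2(value + 1) profiles, among 331 well-counted genes. This is a description, since all listed genes share the libraries and the selection on genotype. The profiles were centred but not scaled, so the size of the genotype difference enters this measure. Ly6e was closest to Hcar2, the niacin receptor, with a difference of 0.08, then to Lsp1, a leukocyte actin-binding protein, with 0.12, to Cd72, a lectin-like inhibitory receptor, with 0.13, and to Psrc1 with 0.13. Hcar2 went from 299 ± 56.7 in wild type to 101 ± 2.24 in Senp8+/-, a 2.96-fold fall. Ly6i was closest to Cxcl9, a chemokine induced by interferon-gamma, with 0.29, then to Ly6c2 with 0.31, Ly6a with 0.40 and Timd4, a phosphatidylserine receptor, with 0.42. Ly6c2 was closest to Ly6i, to Ly6a with 0.35, to the chemokine Ccl8 with 0.46 and to complement factor B, Cfb, with 0.50. So Ly6i and Ly6c2 were among each other's nearest patterns, and Ly6a was among the nearest of both. The genes nearest to Ly6a were not sought. Ly6e lay farther from Ly6i, Ly6c2 and Ly6a, at 1.19 from Ly6i, with 263 of the 331 genes closer to Ly6e. Its level fell 2.98-fold, against 10.3- to 15.6-fold for those genes, and the distance in large part reflects that gap.

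The wild-type libraries differed among themselves in the Ly6 genes. In wild-type replicate 3, Ly6i stood at 0.461, Ly6c2 at 0.487 and Ly6a at 0.388 of the mean of replicates 1 and 2, and Ly6e at 0.798. Over the 357 listed genes at or above the table's median level, the median of this ratio was 0.872, and 10.4% of them were as low as Ly6i or lower, 15.1% as low as Ly6c2 and 45.4% as low as Ly6e. Cxcl9 stood at 0.436, Plac8 at 0.398 and Hp, the haptoglobin gene, at 0.478. Other genes with a similarly large genotype difference went either way. The guanylate-binding protein genes Gbp4 and Gbp8 stood at 2.22 and 1.78, and Ciita and Nos2, which were chosen after their values were seen, at 2.16 and 1.96. Iigp1, a GTPase of interferon-gamma defence, stood at 1.10, Gbp2b, also chosen after its value was seen, at 1.04 and Ccl8 at 0.292. Over the 19 listed interferon-gamma genes, wild-type replicate 3 was the lowest wild-type library for 9 and the highest for 9. Thus Ly6i, Ly6c2 and Ly6a were low in the wild-type library in which Gbp4, Gbp8, Ciita and Nos2 were high, although all 7 were 10.3- to 15.6-fold apart between genotypes. These genes also differ in their deposited gene length. Ly6i, Ly6a and Ly6c2 have 1156, 1205 and 2740 bases, and Gbp8, Nos2, Gbp4 and Ciita have 3443, 4412, 7494 and 9535. Of the other genes named here, Ccl8, Plac8 and Hp, at 0.292, 0.398 and 0.478, have 511, 1592 and 1606 bases. Cxcl9, at 0.436, has 3016 bases and Gbp2b, at 1.04, has 2823. Iigp1, at 1.10, has 3121 bases and Ly6e, at 0.798, has 3784. Whether this ratio follows gene length was not tested.

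**Figure D4:**
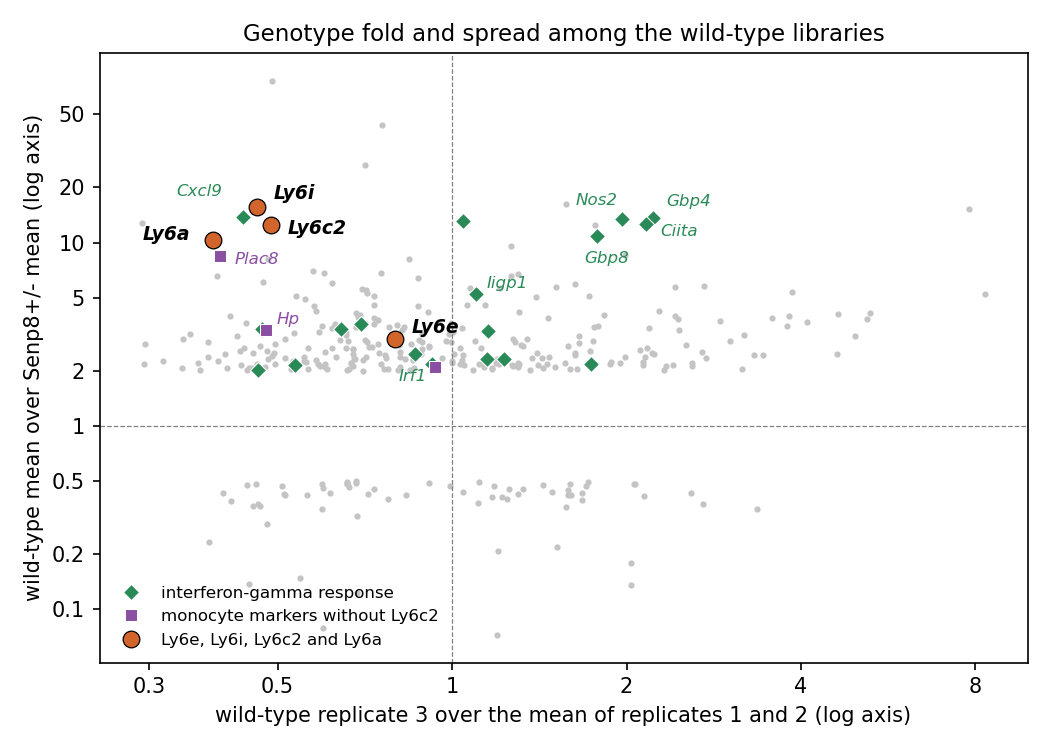
Wild-type mean over Senp8+/- mean against wild-type replicate 3 over the mean of wild-type replicates 1 and 2 (both log axes), for 356 of the 357 listed genes at or above the median level (grey; 1 gene with 0 in Senp8+/- is not drawn), with interferon-gamma response genes (green), monocyte markers without Ly6c2 (purple) and the Ly6 genes (orange). Ly6i, Ly6c2 and Ly6a sit at 0.388 to 0.487 on the horizontal axis beside Cxcl9 and Plac8, while Gbp4, Gbp8, Ciita and Nos2 sit at 1.78 to 2.22.

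The listed interferon-gamma response genes were lower in Senp8+/-, and those of type I interferon were split. Of 38 genes in the interferon-gamma list, 19 were listed, all lower, and 17 were called lower. Of all 714 listed genes 569 were lower and 33.9% were called lower, and the 19 genes that were not listed were not analysed here. Their median log2 fold change was -1.76, against -1.48 over all listed genes. Cxcl9 fell from 383 ± 161 to 27.6 ± 9.86, Iigp1 from 557 ± 44.4 to 106 ± 32.6, Gbp4 from 205 ± 103 to 15.1 ± 1.0 and Gbp8 from 111 ± 40.7 to 10.2 ± 4.15. Irf1, a transcription factor of this response, fell 2.47-fold. Of 40 genes in the type I interferon list, 7 were listed, 2 called lower and 3 called higher, with a median of 1.02. Over all listed genes 145 of 714 were higher and 7.42% were called higher. Irf7 and the antiviral membrane gene Ifitm3 fell 2.02- and 2.30-fold, while Ifit3b and Usp18 rose 3.09- and 2.14-fold. Ly6e, often counted among type I interferon genes, thus lay on the side of Irf7 and Ifitm3. Ifit3b and Gbp8 have close copies, so their counts are uncertain. On chromosome 5 the annotated spans of Gbp4 (105115767 to 105139586) and Gbp8 (105014150 to 105139540) overlap, so the count of Gbp4 is uncertain too.

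Genes that mark other leukocytes were among the listed genes. Their counts stand beside the 569 of 714 listed genes that were lower in Senp8+/- and the 33.9% that were called lower, in a table selected on this contrast. Of 17 monocyte markers other than Ly6c2, 3 were listed, all lower, and Plac8 and Hp were called. Plac8 fell from 57.9 ± 28.4 to 6.87 ± 3.75 and Hp from 1117 ± 415 to 336 ± 87.3. The summed level of the listed monocyte markers other than Ly6c2 ranged from 729 to 1585 in wild type and from 318 to 469 in Senp8+/-, with wild-type replicate 3 the lowest of its genotype, and most of it was Hp. Ccr2, the receptor that marks classical monocytes, was not listed. Of 17 neutrophil markers 4 were listed, all lower and 3 called, with sums of 1206 to 1579 in wild type and 363 to 567 in Senp8+/-. Most of that sum was Csf3r, the receptor of G-CSF, at 1147, 1155 and 1553 in wild-type replicates 1, 2 and 3. In wild-type replicate 3 Csf3r was highest, while Retnlg, Prtn3 and Cebpe were lowest, at 0.326, 0.380 and 0.693 of the mean of replicates 1 and 2. Csf3r fell from 1285 ± 232 to 434 ± 109, and Prtn3, a granule protease, from 14.6 ± 6.62 to 1.66 ± 0.522. Retnlg had 0 reads in the Senp8+/- libraries, from a low wild-type level of 6.12 to 22.8, and Cebpe was not called.

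Of 17 T and NK cell markers 8 were listed, all lower and 5 called, against the same 569 of 714 and 33.9% over the listed genes, with sums of 137 to 214 in wild type and 14.9 to 26.8 in Senp8+/-. Thy1 fell from 30.7 ± 6.29 to 3.45 ± 2.58 and Gzmb, granzyme B, from 38.8 ± 12.4 to 1.97 ± 0.863. Gzma and Ncr1 had 0 reads in Senp8+/-, from low wild-type levels of 6.99 to 39.6 and 6.12 to 12.7. T cells also carry Ly6C and Sca-1. The dendritic cell marker Clec9a fell from 82.8 ± 11.5 to 12.5 ± 3.64 as the 1 listed gene of 9, and Cd79b, the 1 listed of 7 B cell markers, was not called. Of 14 macrophage markers C1qa and C1qc were listed, both lower, and neither was called. C1qa fell 2.10-fold, from 7678 ± 2877 to 3654 ± 904, and C1qc 2.06-fold, from 11766 ± 4719 to 5707 ± 1041. Their sums of 10922 to 24342 in wild type and 8169 to 11604 in Senp8+/- overlapped. The overlap was between wild-type replicate 3, at 10922, and Senp8+/- replicate 3, at 11604. Replicates 1 and 2 stood at 23069 and 24342 in wild type and at 8169 and 8309 in Senp8+/-. The part of these cell types in the levels of Ly6e, Ly6i and Ly6c2 was not tested.

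Genes of the GPI anchor, on which Ly6 proteins depend, were mostly not listed. Of 32 genes for the synthesis, attachment and release of the anchor, 1 was listed. This was Pigz, a mannosyltransferase of the pathway, which fell from 71.9 ± 6.36 to 29.0 ± 9.80.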

How the data were processed

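Poly(A)-selected RNA of 6 libraries was sequenced, and the submitters' processing notes name HISAT2 2.0.5 and featureCounts 1.5.0-p3. For the genome build, annotation, strandedness and test the sources used here name nothing. The authors' deposited values are a signal, normalised counts. Dividing by the smallest step of a library gave whole reads for 100% of its 714 values (tolerance 1e-06 of a read), hence 1 size factor per library. The deposited table also holds the authors' log2 fold changes, p-values and adjusted p-values. Positions matched GENCODE M21 (GRCm38).

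Groups came from the sample titles, of which KO is heterozygous by the genotype label. log2(value + 1) of the 714 genes went into limma 3.58.1 (R 4.3.3; trend on) with a genotype term, and edgeR 4.0.16 (quasi-likelihood) was run on the recovered reads. Both adjusted p by Benjamini-Hochberg over 14694 genes and were tested on simulated data. Alternatives were other pseudocounts, scalings and filters, a block, and leaving out each library. Identities used Biopython 1.88 pairwise alignment.

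The genes named are Ly6e, Ly6i and Ly6c2, other listed family genes, up to 6 listed genes within 2 Mb, the 4 genes most alike in pattern (mean at or above the median of 26.8, no predicted genes), up to 4 genes of each list with the smallest p, and Irf1 and Irf7. Genes and lists were chosen with earlier results of these data known. Ddx3y and Eif2s3y were added after their values were seen. 0 columns of other series were present. 1 gene that the rule names is not reported here.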

Additional observations from a re-analysis of the deposited data

How the results depend on the processing

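At the deposited scaling, Ly6e, Ly6i and Ly6c2 were lower in Senp8+/- under each pseudocount, with any 1 library left out, with the replicate block and in edgeR, and moved by less than 1 SD between libraries. Setting all libraries to 1 common median of the listed genes raised log2 fold changes by a median of 0.96 and left Ly6e at -0.55, Ly6i at -2.86 and Ly6c2 at -2.59, still lower. It turned the share of limma calls that were higher from 15.3% to 78.1%, but selected genes cannot give a scaling. limma called 176 listed genes (27 higher, 149 lower), against 295 in the authors' deposited table. edgeR, an alternative chosen after seeing the data, called 180, and limma with the replicate block 174. Same-numbered libraries did not deviate together (correlations of 0.00742, -0.0351 and -0.371), and no wild-type library correlated best with its own number. These correlations rest on 3 libraries per genotype and on genes selected by genotype, so they cannot exclude a pairing. Leaving out 1 library gave 11 to 181 limma calls, namely 11 when wild-type replicate 1 was dropped, 112 for wild-type replicate 2, and 100, 37 and 87 for Senp8+/- replicates 1, 2 and 3. The cause was not tested. The per-kb order of Ly6i and Ly6c2 in wild type reversed, from 1.07 to -0.67 on the log2 scale, with the length of the principal transcript, also chosen after seeing the data. Low read numbers limit Ly6i, Ly6c2 and Gm39556 in Senp8+/-.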
